A study of Mus musculus with 4 samples.

Results

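Transcript levels of the mitochondrial respiratory chain were read from 4 mouse expression arrays: the nuclear genes for subunits of NADH dehydrogenase (complex I), succinate dehydrogenase (complex II), the cytochrome bc1 complex (complex III), cytochrome c oxidase (complex IV) and ATP synthase. Members were chosen by name alone, as every array gene whose symbol begins with Nduf followed by a, b, c, s or v and a number, with Uqcr, with Cox and a subunit number from 4 to 8, or with Atp5, or is Sdha, Sdhb, Sdhc or Sdhd. This gave 83 of the 27827 gene names on the array, measured by 119 probes. The rule itself uses no measured value. The label fits the list with 3 exceptions: Atp5s (now Dmac2l), Atp5sl (now Dmac2) and Cox4nb (now Emc8) match by name but encode other proteins, and they are described apart from the 80 subunits. Ndufa4 was counted with complex IV, to which its product is now assigned.

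The respiratory chain passes electrons from NADH and succinate through ubiquinone and cytochrome c to oxygen, and the proton gradient this builds drives ATP synthase. Complexes I, III, IV and ATP synthase hold subunits from both nuclear and mitochondrial genes, and each is built from a few catalytic or core subunits with many small accessory ones. In dendritic cells (DCs), the cells that present antigen to T cells, bacterial lipopolysaccharide (LPS) is known to shift metabolism from respiration towards glycolysis, in part through nitric oxide, which blocks complex IV, and through itaconate, which inhibits complex II.

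The series compared bone marrow cultures of BALB/C mice, with no genetic change named, at 1 array each. Immature DCs (imDCs) were the loosely adherent clusters of a culture with 5 ng/mL of IL-4 and 10 ng/mL of GM-CSF, taken on day 4 and selected with beads against CD11c. Mature DCs (maDCs) were such cells kept for 4 to 5 more days with LPS at 10 ng/mL. The sDCs grew from lineage-depleted progenitors on a layer of Sca-1+CD117-Lin- mesenchymal stem cells (MSCs), received LPS on day 4 and were formed on day 9; the last group was made alike with an antibody neutralizing IL-10, at 10 µg/mL every 2 days, and is called antibody-treated sDCs here. Thus maDCs and both sDC groups had met LPS, and no LPS-free culture of the same age was among the samples. The sDCs differ from imDCs at least in starting cells, stroma, LPS and time together, and from maDCs at least in starting cells and stroma. GM-CSF and IL-4 are stated for imDCs and maDCs but not for the sDC groups, and no LPS dose is stated for sDCs. All 4 are labelled purified, but the labels do not say how sDCs were parted from the MSCs.

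With 1 array per group there is no measure of the spread between cultures, so no test is given anywhere, and a 2-fold difference is used as a fixed size, not as evidence of a change. Levels below are log2 intensity minus the array's 75th percentile, so that 0 means as bright as that percentile, and differences are differences of these levels (log2 scale); a level of a probe is set against the same probe on another array, not against another gene. The imDC array was on a slide of its own and the other 3 shared a slide, so in any comparison with imDCs the slide cannot be told apart from the group. The label "dendritic" was not matched by the markers of the sDC arrays: the 10 DC markers summed to 8.19 in imDCs, 8.68 in maDCs, 3.24 in sDCs and 3.10 in antibody-treated sDCs (log2 of the summed level), and Irf4 was not well above background in the last 2 groups. The 9 macrophage markers summed to 5.28, 7.18, 8.18 and 7.99 in the same order, the 10 stromal markers to 6.75, 6.67, 7.60 and 6.72 (Thy1 alone was at 6.74 in imDCs, 3 of the 10 were not well above background in imDCs, and 9 were at least 2-fold higher in sDCs, with a median difference of 7.57), the 9 neutrophil markers to 10.18, 6.48, 7.21 and 8.01, and the 13 proliferation genes to 7.40, 6.07, 4.59 and 4.68. The 8 mast cell and basophil markers summed highest in maDCs, to 6.35, against -0.95 in sDCs and -0.93 in antibody-treated sDCs. All 7 of them with a value were at least 2-fold above imDCs in maDCs (median difference 3.54). In sDCs 6 of the 7 were at least 2-fold below maDCs (median -6.29). Against imDCs 6 were at least 2-fold lower in sDCs and 1 higher (median -3.04). In such bulk samples fewer cells of a type and less RNA per cell cannot be told apart, and the part of these markers in the results was not tested.

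Most of the chain was measurable. Of the 83 members, 79 were well above background on all 4 arrays, against 56.1% of all gene names. The exceptions were isoforms of complex IV: Cox7b2, Cox8b and Cox8c, which are known from testis or muscle, were not well above background on any array, and Cox4i2 was not in maDCs alone. Over the 4 arrays the lowest and highest level of a member lay a median of 0.56 apart, against 1.08 for the 15607 genes well above background on all 4. The spread reached 2-fold in 11 of the 79 members and in 54.1% of those genes. The smallest spans were those of Ndufb6 and Ndufb8, accessory subunits of complex I, and Atp5sl (0.13 each). Next came Ndufb7 (0.17), Atp5d (0.18), Ndufb11 (0.18), Atp5j (0.20) and Cox4i1 (0.21), the general form of the regulatory subunit 4 of complex IV. These spans are those of the probe used. A dimmer probe gave 1.32 for Atp5sl in sDCs minus imDCs, and another -0.59 for Ndufb8 in maDCs minus imDCs. The widest were Atp5s (1.83), Ndufs8 (1.78), Cox7a1 (1.71), Cox6a2 (1.43), Atp5g1 (1.27), Atp5a1 (1.19), Cox7a2l (1.15), Atp5b (1.13), Ndufa7 (1.09) and Uqcrfs1 (1.04), among those named here.

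**Figure D1:**
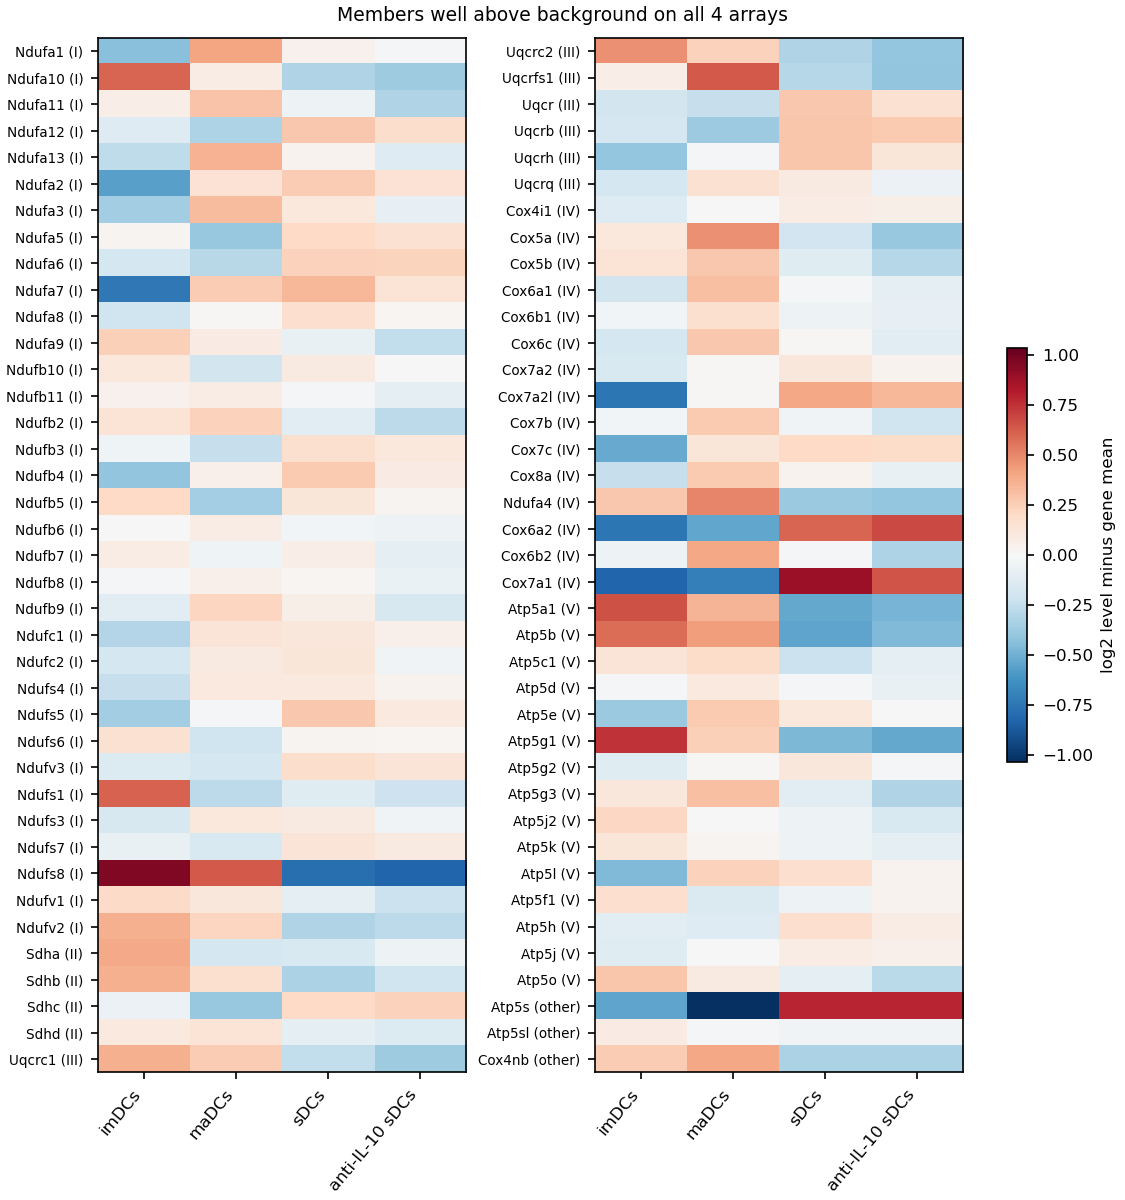
Level of 78 of the 79 members well above background on all 4 arrays, as log2 level minus the gene's mean over the arrays (colour, log2 scale), with the complex in brackets (V, ATP synthase; other, not a subunit). Each column is 1 array; most rows are pale, and Ndufs8 and Cox7a1 are among the strongest coloured, in opposite senses.

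The promoters of these genes are known for sites of the factors NRF1 and GABPA, which tie nuclear genes to mitochondrial demand. RefSeq promoters (GRCm38.p6, 250 bases before to 50 after a start) were found for 66 of the 80 subunits, with 71 promoters between them. On either strand, the core of the NRF1 motif, with 1 free base, was in 25.4% of these promoters against 4.60% of all 32851 promoters of that length, the GABPA letters CCGGAAG in 22.5% against 8.86%, the YY1 letters ATGGCGGC in 9.86% against 2.24%, and the hypoxia response core ACGTG in 25.4% against 19.6%. The 6 genes with the YY1 letters were all in complex I (Ndufa7, Ndufa9, Ndufb5, Ndufs4, Ndufs6 and Ndufs7). A match of letters is a description and shows no binding. For sDCs minus imDCs the median difference was -0.12 over 17 genes with NRF1 letters and 0.03 over 47 without, and 0.18 over 16 with GABPA letters and 0.0029 over 48 without. For the 6 genes with YY1 letters and the 58 without, the median was -0.12 and 0.12 in maDCs minus imDCs. It was 0.16 and -0.10 in sDCs minus maDCs, which shares the maDC array with opposite sign, and 0.07 and 0.02 in sDCs minus imDCs. The order was the other way in sDCs minus maDCs for NRF1 (0.03 with, -0.10 without) and for GABPA (-0.09 and -0.04). For the hypoxia core the medians in sDCs minus imDCs were 0.13 with and 0.01 without. The part of these letters in the differences was not tested.

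The promoters of 4 members are shown as examples picked after their values were seen, from 250 bases before the start to 30 after it: Sdha for its 3 NRF1 matches, Ndufa7 and Cox7a1 as members that were higher in sDCs than in imDCs, and Ndufs8 as the member furthest below imDCs there. Capitals mark the searched letters. Sdha (chr13:74350211-74350490, minus strand) has NRF1 letters beginning at -98, -55 and -10 from the start and a hypoxia core at -125. Ndufa7 (chr17:33824322-33824601, plus strand) has YY1 letters at -98 and a palindrome read as 2 overlapping hypoxia cores at -72 and -71. Ndufs8 (chr19:3912745-3913024, minus strand) has GABPA letters at position 16 after the start, and Cox7a1 (chr7:30183921-30184200, plus strand) has a hypoxia core at position 10 and none of the other letters.
Sdha: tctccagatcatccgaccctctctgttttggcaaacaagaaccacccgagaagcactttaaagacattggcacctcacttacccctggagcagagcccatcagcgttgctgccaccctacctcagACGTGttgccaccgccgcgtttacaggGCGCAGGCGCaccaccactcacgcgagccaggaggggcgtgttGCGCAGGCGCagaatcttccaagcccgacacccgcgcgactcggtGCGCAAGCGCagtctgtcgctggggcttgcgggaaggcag
Ndufa7: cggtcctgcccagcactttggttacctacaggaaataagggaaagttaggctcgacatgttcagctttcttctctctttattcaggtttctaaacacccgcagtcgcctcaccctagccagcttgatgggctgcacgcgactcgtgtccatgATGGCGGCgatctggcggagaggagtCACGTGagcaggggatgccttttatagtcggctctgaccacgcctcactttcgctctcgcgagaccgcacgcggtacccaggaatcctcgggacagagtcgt
Ndufs8: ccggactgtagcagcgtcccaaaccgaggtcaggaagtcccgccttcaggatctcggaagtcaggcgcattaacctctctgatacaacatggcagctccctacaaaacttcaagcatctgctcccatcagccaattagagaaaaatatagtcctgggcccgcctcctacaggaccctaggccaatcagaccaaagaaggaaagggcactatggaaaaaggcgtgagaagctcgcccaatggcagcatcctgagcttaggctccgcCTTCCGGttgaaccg
Cox7a1: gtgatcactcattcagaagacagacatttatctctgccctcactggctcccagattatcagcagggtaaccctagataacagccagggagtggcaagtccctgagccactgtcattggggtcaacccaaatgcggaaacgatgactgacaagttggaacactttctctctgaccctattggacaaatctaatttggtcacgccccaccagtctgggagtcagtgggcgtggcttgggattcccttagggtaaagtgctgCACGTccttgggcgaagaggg

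The first comparison, maDCs minus imDCs, addresses what longer culture with LPS goes with. The 79 measured members kept close together: the differences ran from -0.88 to 1.0, with a middle range (first to last quartile) of 0.53 against 1.28 for all genes. That range was 1.19 for genes well above background on all 4 arrays. It was 0.63 for mitochondrial and 0.43 for cytosolic ribosomal protein genes, so the closeness was not particular to the chain. At 2-fold, 1 member was higher and 0 were lower, where 22.1% of the 17252 genes tested were higher and 10.1% lower. At 1.5-fold the members counted 9 higher and 2 lower, against 34.7% and 18.9% of genes. The median of the members was 0.09, that of all genes 0.22; with quantile normalization the members' median was -0.20 and that of all genes 0.02, so the side of 0 on which the members lay depends on the scaling while they lay below the median gene under both. The split of all genes past 2-fold also moved, from 68.7% of them higher as reported to 57.5% in the authors' deposited values, and the members' split from 1 higher and 0 lower to 0 and 1.

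In sDCs against imDCs the members spread further, from -1.74 to 2.50 over 80 measured members. The median was 0.10 (all genes 0.30), and -0.05 with quantile normalization (all genes 0.08). At 2-fold, 6 members were higher and 5 lower, where 27.8% of 18835 genes were higher and 14.9% lower. At 1.5-fold 12 were higher and 13 lower, against 39.8% and 22.8% of genes. Within 2-fold lay 69 members (86.3%) and 57.4% of genes. Of lists described below, the share was higher for cytosolic ribosomal protein genes (96.2%), assembly factors (93.1%) and mitochondrial ribosomal protein genes (90.7%). It was lower for the tricarboxylic acid cycle (64.7%) and the electron carriers (61.5%). The 5 lower members all belonged to the general chain, among them Ndufs8 of complex I and Atp5a1, Atp5b and Atp5g1 of ATP synthase. Of the 6 higher, Cox4i2, Cox7a1 and Cox6a2 are tissue isoforms of complex IV, Atp5s is no subunit, and Cox7a2l and Ndufa7 are general. Of these 11 members, 10 also passed 2-fold with quantile normalization and 10 in the authors' deposited values; Ndufa7 did not reach it in either, at 0.92 with quantile normalization and 0.96 in the deposited values.

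The sDC and maDC arrays were on the same slide and both groups had met LPS, but starting cells, stroma and stated cytokines differed. In sDCs against maDCs 3 of 80 members were at least 2-fold higher (Atp5s, Cox7a1, Cox6a2) and 1 lower (Ndufs8). Of 18080 genes 15.4% were higher and 16.1% lower. At 1.5-fold 8 members were higher and 8 lower, against 26.1% and 24.3% of genes. The median was -0.06, that of all genes 0.06; with quantile normalization the members' median was 0.021, above 0. The comparisons with imDCs share the imDC array, and those with sDCs the sDC array, so their values are given side by side and are not independent.

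**Figure D2:**
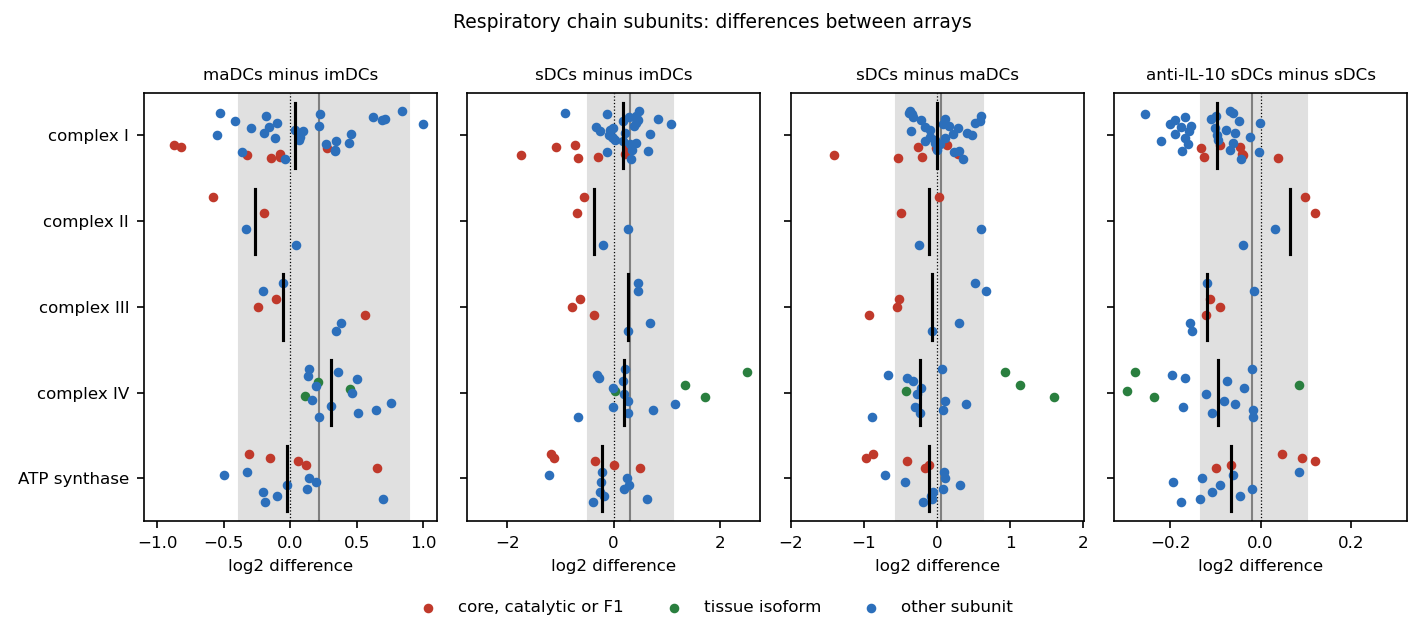
Log2 difference of each measured subunit (point) between 2 arrays, by complex, for the 4 comparisons; the black bar is the median of the complex, the grey line and band the median and quartiles of all genes. Scales differ between panels. Red core and catalytic subunits lie mostly left of the blue ones for complexes I to III in sDCs minus imDCs, and the antibody panel is narrow, from -0.29 to 0.12.

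Complex I, the entry point for electrons from NADH, has a core that carries the flavin, the iron-sulfur clusters and the path to ubiquinone, and a shell of accessory subunits that serve assembly and stability. The 7 core subunits on the array and the 28 accessory ones stood apart in sDCs minus imDCs: the core median was -0.68, with 5 of 7 below 0 and 2 at least 2-fold lower, and the accessory median 0.25, with 18 of 28 above 0. In maDCs minus imDCs the core median was -0.14, with 6 of 7 below 0, and the accessory median 0.08, with 17 of 28 above 0. Among all genes 11319 of 18835 were above 0 in sDCs minus imDCs, with a median of 0.30. In maDCs minus imDCs 10180 of 17252 genes were, with a median of 0.22. Both accessory medians lay below that of all genes, so the accessory subunits were not high against the array. The core medians lay further below. With quantile normalization the core counts were the same, 5 of 7 and 6 of 7, while the accessory members above 0 were 16 of 28 and 11 of 28. In sDCs minus maDCs, which share a slide, the core median was -0.21 and the accessory median 0.06. Whether core and accessory subunits differ beyond the spread between cultures cannot be tested with 1 array a group.

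Ndufs8, a core subunit that carries iron-sulfur clusters, stood at 2.33 in imDCs, 2.01 in maDCs, 0.59 in sDCs and 0.55 in antibody-treated sDCs. The DC arrays were high and the stroma-formed arrays low, a difference of -1.74 (3.34-fold lower) from imDCs and of -1.41 (2.67-fold lower) from maDCs. Its probe lies at chr19:3911200-3911568 (mm9, minus strand). Ndufs1, the largest core subunit and carrier of iron-sulfur clusters, was at 4.39, 3.51, 3.65 and 3.56. Here the maDC and sDC arrays were alike, and the differences from imDCs were -0.88 and -0.73. Ndufv2 was -0.68 from imDCs in sDCs, which is the value at the core median. A dimmer probe of Ndufv2, named for another cDNA, gave 1.43. Ndufv1, which binds the flavin, was -0.29 from imDCs in sDCs. Ndufs3 and Ndufs7 were above imDCs there, with 0.26 and 0.21 (0.14 and 0.0011 with quantile normalization).

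Among accessory subunits Ndufa7 was at 4.34 in imDCs, 5.34 in maDCs, 5.42 in sDCs and 5.22 in antibody-treated sDCs. The imDC array alone was low, and the differences were 1.0 in maDCs (2.00-fold, at the threshold itself, and 0.73 with quantile normalization) and 1.09 in sDCs; its other probe gave 0.97 and 0.79. Ndufa1, a small membrane subunit, was 0.84 higher in maDCs and 0.48 in sDCs. Ndufa2 was 0.71 and 0.82 higher, Ndufa3 0.69 and 0.46, and Ndufa13, also known as the cell death regulator GRIM-19, 0.62 and 0.30. Of the accessory members below imDCs, 11 of 28 in maDCs and 10 of 28 in sDCs, Ndufa10 lay lowest in sDCs. It was at 3.01, 2.49, 2.10 and 2.04, highest in imDCs, with differences of -0.53 in maDCs and -0.91 in sDCs, and Ndufb5 was -0.55 in maDCs and -0.08 in sDCs.

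Complex II is succinate dehydrogenase, an enzyme of the chain and of the tricarboxylic acid (TCA) cycle at once, encoded by 4 nuclear genes. Sdha, the flavoprotein that oxidizes succinate, was at 1.70 in imDCs, 1.12 in maDCs, 1.15 in sDCs and 1.25 in antibody-treated sDCs, and Sdhb, the iron-sulfur subunit, at 3.57, 3.37, 2.88 and 3.0. For both the imDC array was the highest. The differences from imDCs were -0.58 in maDCs and -0.55 in sDCs for Sdha, and -0.20 and -0.70 for Sdhb. The membrane anchors did not follow a common course: Sdhc was at 1.58, 1.25, 1.85 and 1.88, and Sdhd at 4.67, 4.72, 4.47 and 4.43, which gives -0.33 and 0.27 for Sdhc and 0.04 and -0.20 for Sdhd. None of the 4 reached 2-fold in any comparison on the probe used. The probes of Sdha disagreed: another probe of the same RefSeq mRNA gave -1.19 in maDCs and -1.79 in sDCs, and a dimmer probe named for another cDNA gave 1.57 and 1.53.

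Complex III hands electrons from ubiquinol to cytochrome c. Its 2 core proteins were lower in sDCs: Uqcrc1 was at 5.26 in imDCs, 5.15 in maDCs, 4.64 in sDCs and 4.52 in antibody-treated sDCs, and Uqcrc2 at 5.11, 4.87, 4.32 and 4.23. The sDC arrays lay below both DC arrays for each, with differences from imDCs of -0.63 and -0.79. Uqcrfs1, the Rieske iron-sulfur protein, was highest in maDCs, at 4.93, 5.49, 4.57 and 4.45, so that it was 0.56 above imDCs in maDCs and 0.92 below maDCs in sDCs (difference -0.92). The 4 small subunits went the other way, and all were above imDCs in sDCs: Uqcrh 0.68, Uqcr (now Uqcr11) 0.47, Uqcrb 0.46 and Uqcrq 0.28 (0.04 with quantile normalization).

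Complex IV reduces oxygen to water, and its nuclear subunits include pairs of a general form and a form known from muscle, heart, lung or testis. In maDCs minus imDCs all 15 measured members were above 0, from 0.11 to 0.76 with a median of 0.30. With quantile normalization 11 of 15 were, with a median of 0.13. Among all genes 10180 of 17252 were above 0 as scaled here, with a median of 0.22, and with quantile normalization their median was 0.02. The complex IV median thus lay above that of all genes under both, but much of its distance from 0 as scaled here was shared by all genes. The 12 general subunits had a median of 0.33, and 2 passed 1.5-fold, Cox7a2l (0.76) and Cox7c (0.64). Cox6a1 (0.50), Cox8a (0.51), Cox6c (0.46) and Cox5a (0.36) were next. In sDCs against maDCs 8 of the 12 general members were below 0, with a median of -0.26. Cox5a was at 6.91 in imDCs, 7.27 in maDCs, 6.60 in sDCs and 6.41 in antibody-treated sDCs. Ndufa4 was at 5.51, 5.73, 4.84 and 4.83, with the sDC arrays below both DC arrays and a difference of -0.88 from maDCs. Cox7a2l, counted here with the general subunits, was at 3.63, 4.39, 4.78 and 4.72, lowest in imDCs, which is 1.15 (2.21-fold) higher in sDCs.

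For subunits 4, 6a and 7a of complex IV, the tissue form was further above imDCs in sDCs than the general form; for 6b it was not. Cox7a1, the heart and muscle form of subunit 7a, was at 0.34 in imDCs, 0.45 in maDCs, 2.05 in sDCs and 1.81 in antibody-treated sDCs, with both DC arrays low and both stroma-formed arrays high. It was 1.71 (3.27-fold) above imDCs and 1.60 (3.02-fold) above maDCs in sDCs, while its general counterpart Cox7a2 was 0.27 and 0.10 above. Cox6a2, the muscle form of subunit 6a, was at -1.10, -0.89, 0.25 and 0.33, 1.35 (2.54-fold) above imDCs in sDCs, against 0.17 for Cox6a1 (-0.18 with quantile normalization). Cox4i2, the lung form of subunit 4 known to be induced by low oxygen, was the dimmest of those measured: it stood at -7.01 in imDCs, -6.94 and not well above background in maDCs, -4.51 in sDCs and -4.79 in antibody-treated sDCs. In sDCs Cox4i2 was 5.66-fold above imDCs (2.50 on the log2 scale, 1.2 after normexp background correction). Against maDCs it was at least 1.91-fold higher as scaled here (0.93 on the log2 scale). That bound was 0.46 at the lowest with other processing. Cox4i1 was 0.21 above imDCs and 0.07 above maDCs (-0.09 and 0.16 with quantile normalization). Cox6b2, the testis form of subunit 6b, was at -0.97, -0.52, -0.94 and -1.23 and so differed by 0.03 between sDCs and imDCs, against -0.02 for Cox6b1. Cox8a was 0.27 above imDCs in sDCs, and Cox8b and Cox8c gave no value. No probe was named Ndufa4l2.

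The probes of the isoforms that were highest in sDCs are shown because their letters decide which isoform is read. Both are 60 bases long and are placed over a longer stretch of genome, as probes across an exon junction are, Cox4i2 at chr2:152579950-152580939 and Cox7a1 at chr7:30970337-30970948 (mm9, plus strand, as the scanner tables give them).
Cox4i2: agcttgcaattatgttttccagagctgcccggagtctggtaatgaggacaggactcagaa
Cox7a1: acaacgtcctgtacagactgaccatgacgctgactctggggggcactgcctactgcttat

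Markers of other cells differed along with these isoforms. In sDCs 9 of 10 stromal markers were at least 2-fold above imDCs (median 7.57), and 1, Thy1, was lower; all 10 were well above background in both sDC groups, and Pdgfra was not in imDCs or maDCs. Of 10 muscle markers 6 were well above background in imDCs, 4 in maDCs, 5 in sDCs and 6 in antibody-treated sDCs, with a summed level of 0.63 in imDCs, 0.03 in maDCs, 1.78 in sDCs and 1.85 in antibody-treated sDCs; Acta1 was 3.64 above imDCs and Des at least 3.43, Ckm and Myl1 were well above background in imDCs but not in sDCs, and Myog and Mb on no array. In sDCs minus maDCs 3 of the 6 muscle markers with a value were above 0 and 3 below. In antibody-treated sDCs against sDCs the stromal markers had a median of -0.95, and Cox7a1 was at -0.23, Cox4i2 at -0.28 and Cox6a2 at 0.08. The part of stromal or muscle-like cells in the isoform values was not tested.

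**Figure D3:**
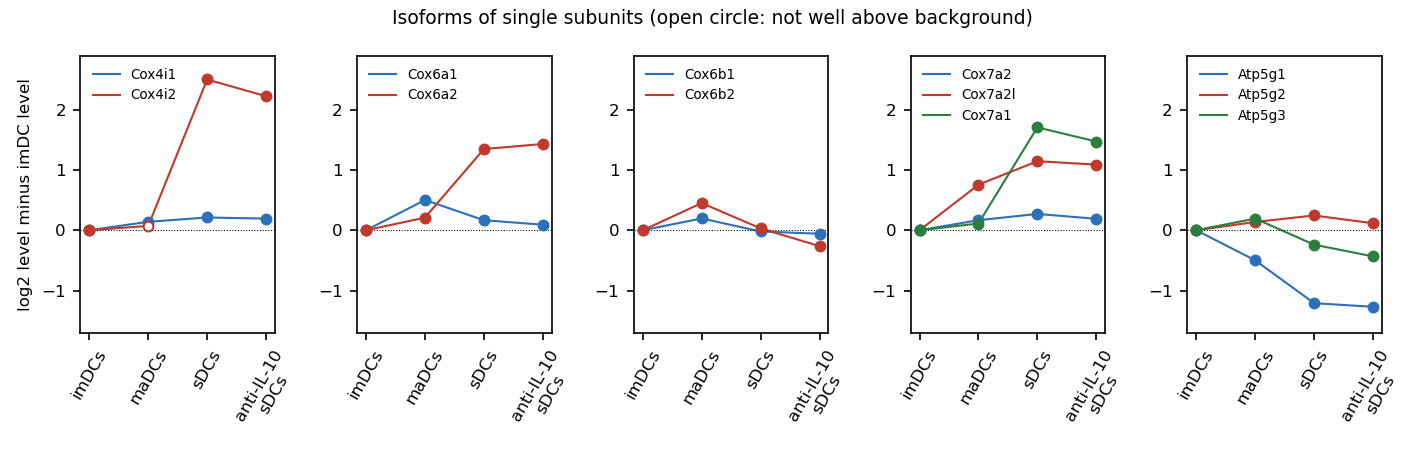
Level of each isoform on each array minus its level in imDCs (log2 scale), 1 panel per subunit; open circles were not well above background. The red Cox4i2 and Cox6a2 lines and the green Cox7a1 line are highest in the 2 stroma-formed arrays, as is Cox7a2l (1.15 in sDCs), while Cox4i1, Cox6b1 and Cox7a2 stay within 0.27 of 0, Cox6a1 is at 0.50 in maDCs and Atp5g1 is at -1.21 in sDCs.

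ATP synthase couples a catalytic F1 head, a rotating ring of c subunits, a peripheral stalk and small membrane subunits. The alpha and beta subunits, which form the catalytic hexamer, were lowest in the stroma-formed arrays: Atp5a1 was at 6.27 in imDCs, 5.96 in maDCs, 5.09 in sDCs and 5.13 in antibody-treated sDCs, and Atp5b at 6.90, 6.76, 5.78 and 5.87. The differences from imDCs in sDCs were -1.19 (2.27-fold lower) and -1.13 (2.19-fold lower). Both were also below maDCs there, by -0.88 and -0.98. The other probe of Atp5a1 gave smaller differences in sDCs, -0.88 from imDCs, short of 2-fold, and -0.54 from maDCs. The 5 F1 subunits were below maDCs in sDCs, with a median of -0.42, and all 5 stayed below with each of the 4 other scalings tried. Atp5c1, the central shaft, was -0.36 from imDCs in sDCs, Atp5d 0.01 and Atp5e 0.49. The 2 other probes of Atp5b gave larger differences in sDCs, -2.24 and -2.41, and -1.10 and -1.14 in maDCs, where the brightest probe (chr10:127527255-127527314, mm9, plus strand) gave -0.15.

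The c subunit has 3 genes, whose mature proteins are known to be identical and which differ in their import sequences. Atp5g1 was at 4.54 in imDCs, 4.04 in maDCs, 3.33 in sDCs and 3.27 in antibody-treated sDCs, Atp5g2 at 4.88, 5.02, 5.12 and 4.99, and Atp5g3 at 6.51, 6.71, 6.27 and 6.08. Atp5g1 was thus highest in imDCs and 1.21 below them in sDCs (difference -1.21, 2.31-fold lower; probe at chr11:95934924-95934983, mm9, minus strand), while Atp5g2 was 0.25 above (0.03 with quantile normalization) and Atp5g3 at -0.24. The 4 peripheral stalk members had a median of -0.01 in sDCs minus imDCs and ran from -0.38 (Atp5o) to 0.28 (Atp5h). Of the membrane subunits Atp5l was 0.70 above imDCs in maDCs and 0.63 in sDCs, and Atp5k and Atp5j2 were -0.18 and -0.26 in sDCs.

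Of the 3 members that are not subunits, Atp5s had the widest values. It was at -1.35 in imDCs, -1.84 in maDCs, -0.02 in sDCs and -0.02 in antibody-treated sDCs, 1.33 above imDCs and 1.82 above maDCs in sDCs; its other probe gave 0.22 and 0.65. Cox4nb was -0.59 and Atp5sl -0.13 from imDCs in sDCs, and their other probes gave 1.48 and 1.32.

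Neutralizing IL-10 during sDC formation went with small differences in the chain. Over 80 measured members they ran from -0.29 (Cox6b2) to 0.12 (Atp5c1), with 0 members at least 2-fold higher and 0 lower, where 1.01% of 17948 genes were higher and 1.31% lower. At 1.5-fold the members again counted 0 and 0, against 2.67% and 5% of genes. For 33 members the difference was within 0.08, the SD expected of a difference between single spots from probes spotted repeatedly, which covers spotting and scanning only. Of the 80, 69 were below 0 with a median of -0.09 (all genes -0.02, 45% of them above 0). With quantile normalization 53 were below 0 and the median was -0.03. A lean below 0 was not particular to the chain. Below 0 were 54 of 75 mitochondrial ribosomal protein genes (median -0.07), 52 of 78 cytosolic ones (-0.05) and 21 of 29 assembly factors (-0.04). Only 9 of 17 TCA cycle genes and 6 of 16 biogenesis regulators were. The 28 accessory subunits of complex I were all below 0 as scaled here, the furthest Ndufa11 (-0.26), but 22 of 28 with quantile normalization. Members above 0 included 3 of 4 in complex II, with Sdhb at 0.12, Sdha at 0.10 and Sdhd below at -0.04, and 3 of 5 in F1, with Atp5c1 at 0.12 and Atp5b at 0.09 but Atp5d at -0.07 and Atp5e at -0.10. Marker levels also differed between these 2 arrays, with 10 of 10 stromal markers lower (median -0.95) and 9 of 9 neutrophil markers higher (median 1.05), and their part in the small shift was not tested.

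The rest of the pathway was read from lists not chosen by the name rule. The TCA cycle list, with pyruvate dehydrogenase, differed more from imDCs than the chain did: its 17 genes had a median of -0.76 in maDCs (16 below 0, 5 at least 2-fold lower) and of -0.88 in sDCs (17 below 0, 6 at least 2-fold lower), where 10.1% and 14.9% of all genes were at least 2-fold lower. The 17 stayed below 0 in sDCs with each of the 4 other scalings. Idh3a, a subunit of the NAD-dependent isocitrate dehydrogenase, was at 4.33 in imDCs, 2.99 in maDCs, 2.09 in sDCs and 2.01 in antibody-treated sDCs, a stepwise order with differences of -1.34 and -2.23. Idh2, the NADP-dependent enzyme, was at 1.13, -0.70, -0.71 and -0.45, and differed by -1.83 and -1.84. Pdha1 of pyruvate dehydrogenase was -1.01 and -1.58, Ogdh of the oxoglutarate complex -1.21 and -1.12, and Fh1, fumarase, -0.81 and -1.27. In antibody-treated sDCs against sDCs the list's median was -0.02, and 0.03 with quantile normalization.

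The carriers that link the complexes were lower as well in sDCs. Cyc1, the cytochrome c1 of complex III that the name rule leaves out, was at 5.60, 4.78, 4.37 and 4.26 from imDCs to antibody-treated sDCs, with differences from imDCs of -0.82 in maDCs and -1.24 in sDCs. Cycs, somatic cytochrome c, was at 5.33, 5.01, 4.55 and 4.52. Etfa and Etfb, which bring electrons from fatty acid oxidation, were -0.77 and -1.26 in maDCs and -1.25 and -1.01 in sDCs. The 13 genes of this list, which also holds ubiquinone synthesis, had a median of -0.47 in maDCs and -0.78 in sDCs, where all 13 were below 0; for Cyct the value is a bound. Of 29 measured assembly factors 17 were below 0 in maDCs (median -0.19) and 22 in sDCs (median -0.36); Bcs1l, which inserts the Rieske protein, was -1.23 in maDCs and Sdhaf1 (0610010E21Rik), which serves complex II, -1.49 from maDCs in sDCs. The 75 mitochondrial ribosomal protein genes had medians of -0.28 and -0.32 and the 78 cytosolic ones of 0.22 and 0.26, which with quantile normalization became -0.36 and -0.35, and -0.10 and -0.00. Probes for 2 mitochondrially encoded subunits gave 0.46 (CYTB) and 0.47 (COX2) in maDCs and -0.22 and 0.44 in sDCs.

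**Figure D4:**
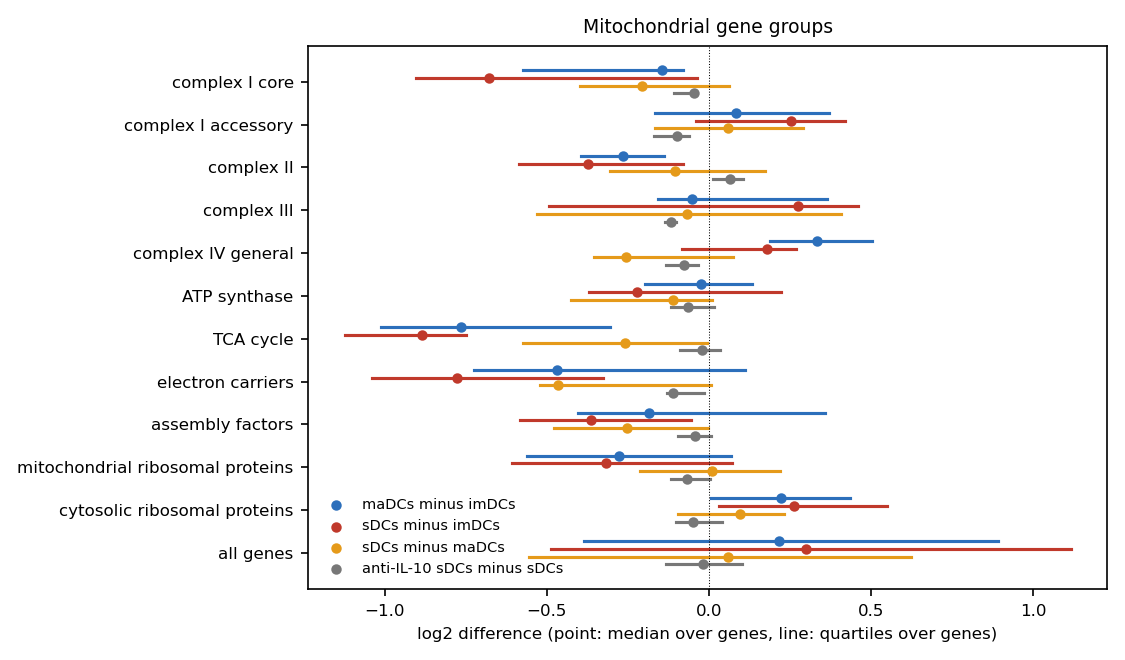
Median (point) and quartiles (line) over genes of the log2 difference for parts of the chain and for related lists, in the 4 comparisons; the lines show the spread over genes and not between cultures. In the comparisons with imDCs the TCA cycle and the electron carriers lie to the left, and among the parts of the chain the complex I core in sDCs (-0.68) has the lowest median and general complex IV in maDCs (0.33) the highest.

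Regulators of the chain did not share a direction. The coactivator Ppargc1a was at -5.64 in imDCs, -3.90 in maDCs, -5.19 in sDCs and -5.12 in antibody-treated sDCs, highest in maDCs (1.74) though dim, and its relative Ppargc1b was -0.67 in maDCs and -0.76 in sDCs. Nrf1, the factor whose letters were searched above, was at -0.80, -2.40, -1.84 and -1.73, lower than imDCs on the other arrays by differences of -1.6 and -1.03 in maDCs and sDCs. Tfam, which packs and transcribes mitochondrial DNA, was 0.95 and 0.47 higher, and Myc -0.99 and -1.02. The 16 biogenesis genes had medians of -0.15 and -0.03.

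The 15 genes that act on respiration during inflammation or low oxygen had medians of 0.70 in maDCs minus imDCs, 1.30 in sDCs minus imDCs and 0.04 in sDCs minus maDCs. Irg1, the enzyme that makes itaconate, was at 3.12 in imDCs, 7.15 in maDCs, 6.11 in sDCs and 6.06 in antibody-treated sDCs, with the imDC array low; the differences were 4.03 and 2.99. Nos2, the inducible nitric oxide synthase, was not well above background in imDCs and was at least 67.6-fold higher in maDCs and at least 45.1-fold in sDCs. Pdk1, the kinase that shuts pyruvate dehydrogenase, was at -0.68, 0.69, 3.72 and 3.59, and Bnip3, a mitophagy receptor, at 1.09, 3.32, 5.15 and 5.24. Both were lowest in imDCs and highest in the stroma-formed arrays, with differences of 4.39 and 4.06 in sDCs. Hif1a was 0.62 higher in maDCs and 1.62 in sDCs, and the glucose transporter Slc2a1 1.79 and 2.52. Trap1, a mitochondrial chaperone, was lower, by differences of -1.59 and -2.19. No probe was named AA467197.

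Where a gene had several probes, they often differed. Of 36 further probes of the members, 33 were measured in sDCs minus imDCs, and 23 of them had the sign of the brightest probe. In that comparison 9 probes, from 7 genes, differed by over 2-fold from the brightest: besides Atp5b, Sdha, Atp5s, Atp5sl and Cox4nb these were Ndufb2 (1.47 against -0.26) and Ndufv2 (1.43 against -0.68). In maDCs minus imDCs 25 of 32 had the same sign and 2 differed by over 2-fold, from Sdha and Atp5f1 (now Atp5pb). Exon and UTR positions of the probes were not assigned here, so which transcripts they read was not tested.

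**Figure D5:**
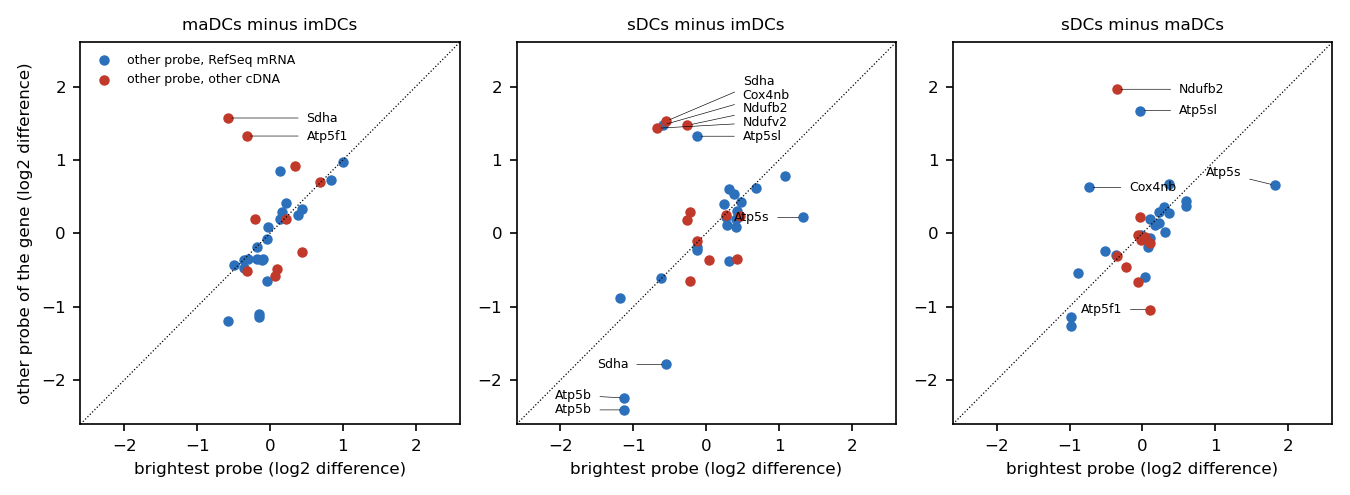
Log2 difference of the brightest probe of a member (horizontal) against each further measured probe of the gene (vertical) in 3 comparisons; the dotted line marks equal values, blue probes are named for a RefSeq mRNA and red ones for another cDNA. Labelled genes differ by over 2-fold; in sDCs minus imDCs they lie on both sides of the line.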

How the data were processed

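For each array the authors deposited its scanner output, in which every spot has an intensity after background subtraction, made per the file headers with Agilent Feature Extraction 10.5.1.1 and mm9 probe positions; the submitters' processing notes name version 9.1. They also deposited a value table, found here to be log2 (correlation with log2 intensity 0.997 for imDCs, 1.0 for maDCs, 0.999 and 0.999 for the sDC groups; median 6.30 in each column, as quantile normalization gives; genes not centred).

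From the intensity, log2 was taken and the 75th percentile of non-control spots subtracted, without outlier spots (0 among the members, whose probes have 1 spot each). A probe was well above background where the scanner software marked at least 50% of its spots. No spot was saturated (0 on each array). Spots well above background made up from 61.2% to 69.7% of an array. The probe with the highest mean represented a gene name. Where 1 side was dim, the difference is a bound ("at least") against the higher of the dim probe's own signal and the lowest signal well above background; where both were dim, none is given. The number of arrays limits the precision. Current symbols came from RefSeq names (GRCm38.p6) for 82 of 83 members.

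Named genes were all of complex II, the isoform pairs, the 5 largest differences in each direction per comparison, members past 2-fold, up to 4 genes per list and fixed regulators, of which 1 member is not reported here by name; others were named after their values were seen. The members and lists were chosen with earlier results of these data known. The calculation was tested on simulated data. Software was Python 3.11.15 with pandas 2.3.3 and numpy 2.4.6, and R 4.3.3 with limma 3.58.1 (normexp, offset 50).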

Additional observations from a re-analysis of the deposited data

How the results depend on the processing

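No paired analysis was possible because each group had 1 array, and for the same reason no array could be left out and no replicate error given. Probes near background limit what can be read of Cox4i2. Alternatives were quantile normalization, a percentile over well-measured probes, normexp background correction, the authors' deposited values, the median over probes, measured differences alone, no filter on dim probes, and narrower member lists. For maDCs minus imDCs the members' median was -0.20 with quantile normalization and -0.21 in the deposited values. Members at least 2-fold higher were 0 with quantile normalization, the other percentile, normexp, the deposited values and the median over probes, and 4 with no filter; members at least 2-fold lower were 1 with quantile normalization, the deposited values (Ndufs1 in both) and the median over probes (Atp5b). For sDCs minus imDCs the median was -0.052 with quantile normalization, -0.054 in the deposited values and 0.19 with the median over probes, and 3 members were at least 2-fold higher without tissue isoforms. For sDCs minus maDCs the median was 0.025 in the deposited values, 2 members were at least 2-fold lower with normexp and with the median over probes, and 1 was higher without tissue isoforms. The cause was not tested. The medians and 2-fold counts of antibody-treated sDCs minus sDCs moved under none of these beyond the limits set (1.5 times for a count), and no 2-fold call of a member changed its direction under any of them.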
